A study of Oryza sativa Japonica Group with 4 samples.

Results

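Among the genomic sites of rice seedlings that carried both pan-lysine crotonylation (Kcr) and crotonylation of lysine 14 of histone H3 (H3K14cr), 1959 pairs of regions were staggered: each region of the pair ran past the other at one end. The pairs were chosen by the deposited borders of the regions. A pair consisted of a Kcr region of at most 2000 bp and an H3K14cr region that shared at least 1 bp, neither contained the other, and pairs whose starts and ends both differed by at most 100 bp were left out. The staggered pairs made up 27.9% of the 7027 overlapping pairs of the series (95% Wilson interval 26.8 to 28.9%), and 31.9% (30.7 to 33.1%) of the 6145 pairs with a Kcr region of at most 2000 bp. They held 1954 of the 10923 Kcr regions and 1955 of the 18813 H3K14cr regions. The other pairs with a Kcr region of that width fell into 1615 pairs with matching borders, 2065 in which Kcr was nested in H3K14cr and 506 in which Kcr enclosed H3K14cr, and 882 pairs had a wider Kcr region.

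Chromatin was taken from leaves of 2-week-old seedlings of the japonica cultivar Nipponbare, wild-type and untreated as far as the labels say, whose seeds had been germinated for 72 h. A pan anti-Kcr antibody was used for 2 chromatin immunoprecipitation libraries and an H3K14cr antibody for the other 2, with digested chromatin. A tissue holds many cell types, so a pair of regions may come from the same or from different cells, and both antibodies were used on bulk leaf chromatin. For each mark 1 list of regions for both replicates was deposited, without scores or read numbers; the depth is unknown and no spread between replicates can be given. All intervals below therefore cover counting error over regions only, and neighbouring regions are not independent of each other. The lengths and borders were used to choose the pairs and are given as descriptions, without a test.

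Crotonylation attaches a short unsaturated acyl group, taken from crotonyl-CoA, to the side chain of lysine. In mammalian cells it is known from active promoters and enhancers, it can be deposited by the acetyltransferase p300, and it is bound by YEATS domain proteins. Lysine 14 lies in the N-terminal tail of histone H3 and is also a common site of acetylation. A pan antibody can bind crotonylated lysines at many histone positions, while the H3K14cr antibody is directed at a single position. Where regions of the marks are staggered, the flank beyond the Kcr border belongs to the H3K14cr region of the pair, and the flank beyond the H3K14cr border to its Kcr region. Another region of the other mark reached into 23 of the Kcr flanks and 29 of the H3K14cr flanks.

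A typical staggered pair was a deep overlap with short flanks. The overlap had a median length of 1107 bp, with quartiles at 956 and 1338.5 bp. The Kcr region ran past the H3K14cr region by a median of 108 bp (40.5 to 190.5 bp), and the H3K14cr region ran past the Kcr region at the other end by a median of 219 bp (112 to 708 bp). These lengths depend on the limits of the rule: the median H3K14cr flank was 510.5 bp with 200 bp in place of 100 bp for matching borders, and with flanks of at least 100 bp on both sides the medians were 192 bp for the Kcr flank and 391 bp for the H3K14cr flank. The midpoints of the regions lay a median of 187.5 bp apart. Near these medians was a pair on chromosome 11, with Kcr at 16858381 to 16859612 and H3K14cr at 16858489 to 16859868. It shared 1123 bp, with 108 bp of Kcr alone at the lower coordinate and 256 bp of H3K14cr alone at the higher. A mirror image lay on chromosome 1, with Kcr at 4456730 to 4457917 and H3K14cr at 4456502 to 4457821. Here the overlap was 1091 bp, the Kcr flank of 96 bp lay at the higher coordinate and the H3K14cr flank of 228 bp at the lower.

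**Figure D1:**
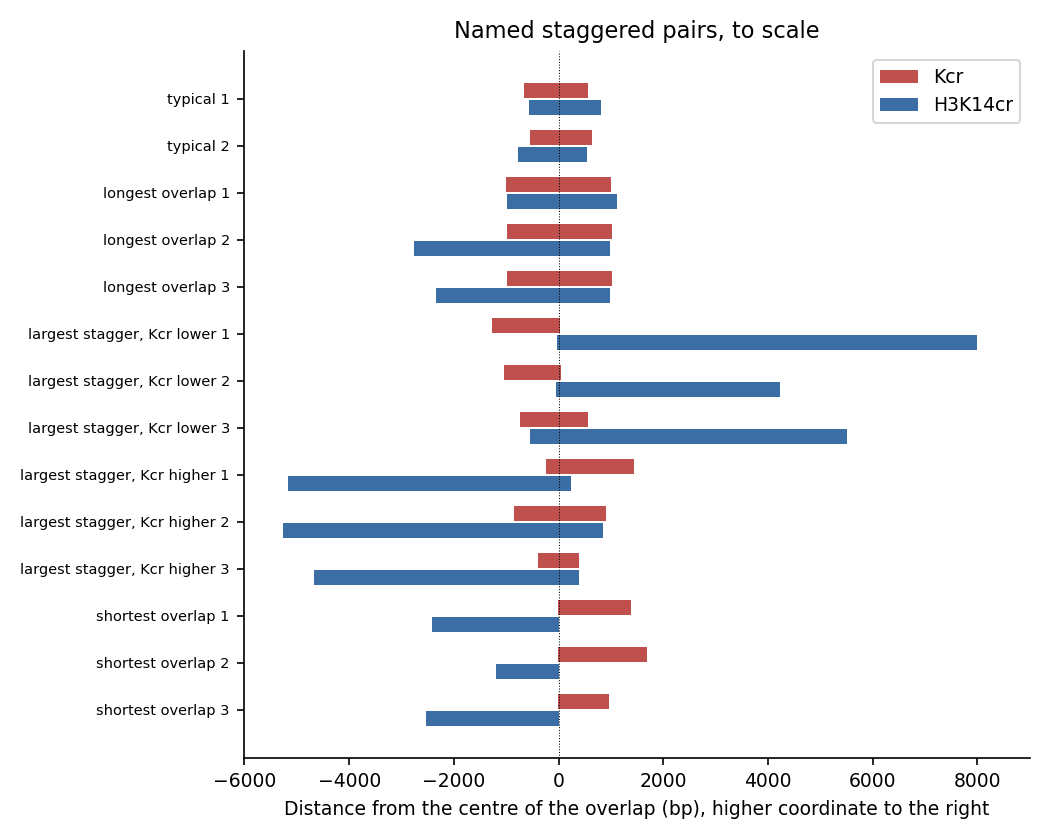
Kcr (red) and H3K14cr (blue) regions of 14 named staggered pairs, drawn to scale against the distance in bp from the centre of their overlap. The typical pairs overlap over most of their length, with 1123 and 1091 bp in common, while those with the shortest overlap share 4 bp.

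The shared part covered a median of 91.6% of the Kcr region and 83.3% of the H3K14cr region. It covered at least 50% of both regions in 1653 pairs, or 84.4% (82.7 to 85.9%), and at least 90% of both in 260 pairs, or 13.3% (11.8 to 14.9%). Summed over the pairs, the shared part was 2.24 Mb, the Kcr flanks 0.340 Mb and the H3K14cr flanks 1.05 Mb. These are 61.8%, 9.39% and 28.8% of the joint span of 3.63 Mb, in which the bases of regions that belong to more than 1 pair are counted once per pair. Of the flanks, 0.0197 Mb of Kcr and 0.0303 Mb of H3K14cr were also covered by another region of the other mark. The median Kcr flank was shorter than the median H3K14cr flank on each of the 12 chromosomes. The rule limits the Kcr width only, so this is not a like-for-like comparison of the marks. Without that limit the medians over all chromosomes were 114 bp (Kcr) and 224 bp (H3K14cr).

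The H3K14cr flank was the longer in 1365 pairs, or 69.7% (67.6 to 71.7%), the Kcr flank in 593 pairs, or 30.3% (28.3 to 32.3%), and both were equal in 1 pair. By geometry these are also the pairs in which the H3K14cr region, or the Kcr region, was the wider. Kcr regions in staggered pairs had a median width of 1274 bp (quartiles 1092.5 and 1522.5 bp) and H3K14cr regions of 1453 bp (1144.5 to 1916 bp). Within a pair the H3K14cr region was wider by a median of 132 bp, with a range from 1065 bp narrower to 6719 bp wider. The widths of paired regions were positively related, with Spearman's rho of 0.48 over 1959 pairs, whereas the lengths of the Kcr and the H3K14cr flank had a rho of -0.18. Both values are descriptions across pairs, which share the lists they come from, and the rule itself constrains the lengths.

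**Figure D2:**
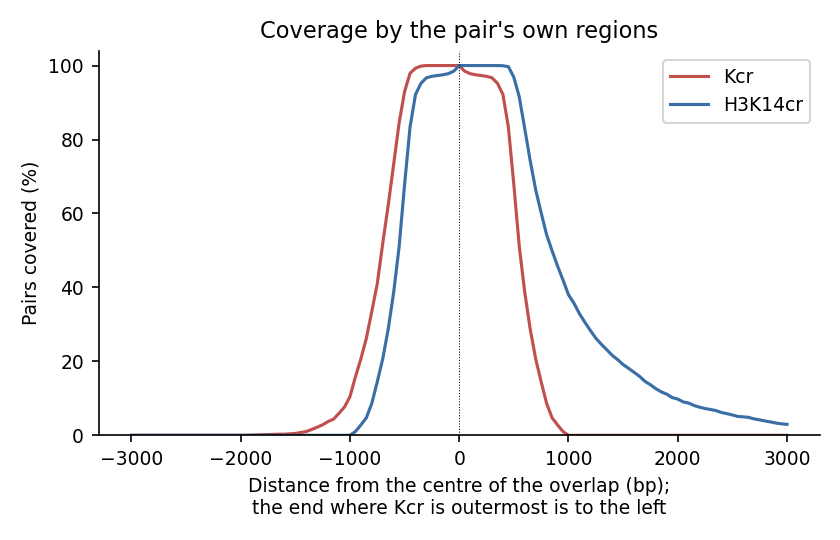
Share of the 1959 staggered pairs (%) whose Kcr region (red) or H3K14cr region (blue) covers a position, against the distance in bp from the centre of the overlap, with all pairs turned so that the end where Kcr is outermost is to the left. Coverage by H3K14cr reaches 38.0% at 1000 bp to the right and 2.96% at 3000 bp, while coverage by Kcr is 10.5% at 1000 bp to the left.

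Turned so that the Kcr flank lay to the left, the pairs had flanks of unequal reach. At 1000 bp to the left of the centre of the overlap the Kcr region was still present in 10.5% of pairs, and at 1500 bp in 0.510%. At the same distances to the right the H3K14cr region was present in 38.0% and 19.1% of pairs. The limit of 2000 bp on the Kcr width bounds the Kcr flank, and the H3K14cr width had no such limit, so these shares are not a like-for-like comparison of the marks.

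One border was nearly common to both marks in most staggered pairs. The shorter of the flanks was at most 100 bp in 1312 pairs, or 67.0% (64.9 to 69.0%), and at most 10 bp in 190 pairs, or 9.70% (8.47 to 11.1%). In 910 of the 1312 pairs the close border was that at which Kcr was outermost. In the other 402 it was that at which H3K14cr was outermost. By geometry the 910 are the pairs with the wider H3K14cr region, and the rule limits the Kcr width only. The longer flank of the 1312 pairs had a median of 224.5 bp and exceeded 500 bp in 381 of them, or 29.0% (26.7 to 31.6%). The close border was at the lower coordinate in 666 pairs, or 50.8% (48.1 to 53.5%), so it was found about as often at either end. In the remaining 647 staggered pairs both flanks were over 100 bp, and their medians were 192 bp (Kcr) and 400 bp (H3K14cr). Both were over 500 bp in 89 pairs, or 4.54% (3.71 to 5.56%).

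**Figure D3:**
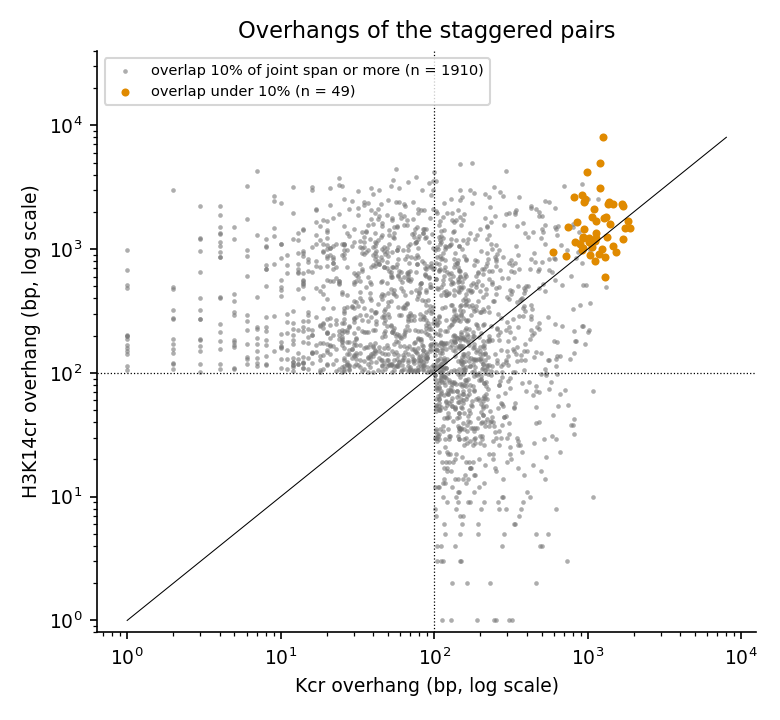
Length of the H3K14cr flank against that of the Kcr flank (bp, both axes logarithmic) for each staggered pair. Dotted lines mark 100 bp, below which both flanks cannot lie by the rule, and the solid line marks equal flanks. The 49 pairs with an overlap under 10% of the joint span (orange) have Kcr flanks of at least 593 bp. Their H3K14cr flanks are of at least 599 bp.

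The side on which Kcr was outermost was not used to choose the pairs, and both sides were about equally common. Kcr ran past H3K14cr at the lower coordinate in 1004 pairs, or 51.25% (49.0 to 53.5%), and at the higher coordinate in 955 pairs, or 48.7% (46.5 to 50.96%). The interval of the share holds 50%. Pairs of both sides also had like lengths, with a median Kcr flank of 108 bp against 107 bp, a median H3K14cr flank of 226 bp against 211 bp and a median overlap of 1099 bp against 1116 bp for Kcr at the lower and at the higher coordinate. The lists give no strand, so a side of the chromosome is not a direction along a gene. Of the 12 chromosomes, 8 had more pairs with Kcr at the lower coordinate and 4 had more with Kcr at the higher. On 11 of them the interval held 50%, and on chromosome 6 it was 50.1 to 65.9% around a share of 58.2% (85 of 146 pairs).

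A small group of staggered pairs, called end to end here, overlapped by under 10% of their joint span. Whether it is separate from the rest was not tested. The share of the joint span taken up by the overlap had a median of 74.4%, and the number of pairs fell from 642 at 80 to 90% of the span to 15 at 10 to 20%, and was 49 under 10%. Above 90% there were 77 pairs; the matching pairs, which the rule left out, lay at 80.7 to 100%. The 49 pairs under 10%, a limit set after these numbers were seen, shared a median of 69 bp and at most 474 bp. Their Kcr regions had a median width of 1269 bp and their H3K14cr regions of 1505 bp. Their overlap was under 100 bp in 30 pairs. It was so in 0 of the other 1910 staggered pairs, which the limit of 10% and the widths of the regions fix in advance. Their number was 31 after merging regions of a list up to 200 bp apart, and 29 when only regions in 1 pair were kept. They were found on all 12 chromosomes. Kcr lay at the lower coordinate in 31 of the 49, or 63.3%, with an interval of 49.3 to 75.3% that holds 50%.

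**Figure D4:**
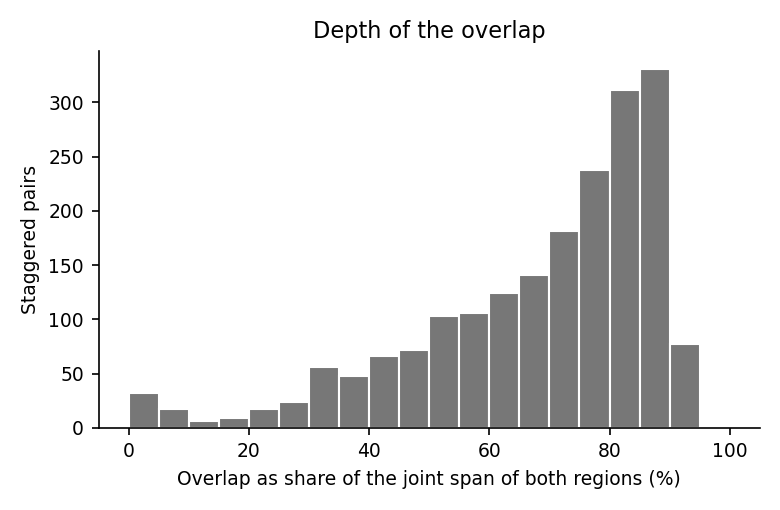
Number of staggered pairs in steps of 5 percentage points, against the overlap as a share of the joint span of both regions (%). Most pairs lie at 70% or more, 15 pairs lie between 10 and 20%, and 49 pairs lie under 10%.

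The shortest overlap was 4 bp, in 3 pairs. On chromosome 1 an H3K14cr region at 21686237 to 21688652 ended 4 bp inside a Kcr region at 21688648 to 21690036. Elsewhere on chromosome 1 an H3K14cr region at 30235814 to 30237014 ended 4 bp inside a Kcr region at 30237010 to 30238706. On chromosome 10 an H3K14cr region at 14054885 to 14057421 ended 4 bp inside a Kcr region at 14057417 to 14058378. In all 3 pairs H3K14cr lay at the lower coordinate, and the Kcr region of both pairs on chromosome 1 overlapped another H3K14cr region further on. An overlap of this size is close to the uncertainty of 1 bp in the deposited starts, and the precision with which borders were placed is unknown.

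The longest overlaps lay near the width limit of the Kcr regions. The longest, 1986 bp, was on chromosome 8, between Kcr at 9491056 to 9493053 and H3K14cr at 9491067 to 9493182, with a Kcr flank of 11 bp and an H3K14cr flank of 129 bp. The next was on chromosome 5, where Kcr at 4108239 to 4110239 and H3K14cr at 4106467 to 4110217 shared 1978 bp. There the higher borders lay 22 bp apart, while H3K14cr went on for 1772 bp at the lower side. The third, with 1968 bp, was also on chromosome 8, with Kcr at 19919207 to 19921202 and H3K14cr at 19917847 to 19921175. All 3 thus had a common border within 27 bp, which the limit of 2000 bp on the Kcr width forces on overlaps of this length. They differed in how far H3K14cr went on at the other end.

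The largest staggers, as the sum of both flanks, were found with broad H3K14cr regions. This follows from the rule, since a Kcr region of at most 2000 bp bounds the Kcr flank. With Kcr at the lower coordinate the largest was 9233 bp, on chromosome 4, where Kcr at 35034666 to 35035968 met by 45 bp an H3K14cr region at 35035923 to 35043944, which at 8021 bp was the widest H3K14cr region of any staggered pair. The next, 5172 bp, was on chromosome 7, with Kcr at 2632896 to 2633974, H3K14cr at 2633886 to 2638156 and 88 bp in common. The third, 5141 bp, was on chromosome 2, with Kcr at 10488962 to 10490245 and H3K14cr at 10489138 to 10495210, and shared 1107 bp. Its H3K14cr flank of 4965 bp also overlapped another Kcr region, by 991 bp. These pairs show both kinds of stagger, a mere contact and a Kcr region that covers one end of a broad H3K14cr region.

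With Kcr at the higher coordinate the largest stagger, 6126 bp, was on chromosome 12, between Kcr at 17576305 to 17577974 and H3K14cr at 17571374 to 17576779, with 474 bp in common. The next was 4484 bp, on chromosome 6, with Kcr at 30238668 to 30240414 inside the higher end of H3K14cr at 30234240 to 30240358 but for 56 bp. The third was 4299 bp, on chromosome 7, with Kcr at 10682431 to 10683211 and H3K14cr at 10678139 to 10683204, where Kcr ran past by 7 bp. The latter pairs lie close to nesting, since 96.8% and 99.1% of the Kcr region were covered.

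Few regions took part in more than 1 overlapping pair, and none in more than 2. Of the 1959 staggered pairs, 50 had such a region, or 2.55% (1.94 to 3.35%): the Kcr region in 23 pairs and the H3K14cr region in 29, with 2 pairs counted under both. Among the 49 end-to-end pairs it was 20, or 40.8% (28.2 to 54.8%), and among the other 1910 it was 30, or 1.57% (1.10 to 2.23%). This difference was not tested, and the choice of the end-to-end pairs bears on it. The overlap covered a median of 6.52% of the Kcr region in end-to-end pairs and 91.9% in the others. Since regions of a list do not overlap each other, this left unlike room for another partner. In 18 of the end-to-end pairs the Kcr region had another H3K14cr partner, which it enclosed in 7 cases, matched in 6 and staggered with in 5. The H3K14cr region of an end-to-end pair had another Kcr partner in 4 cases.

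In 5 cases a Kcr region bridged a pair of H3K14cr regions, staggered against both, and in 4 cases an H3K14cr region bridged a pair of Kcr regions. On chromosome 8 these formed a chain. Kcr at 7880816 to 7882440 shared 1196 bp with H3K14cr at 7880464 to 7882012 and 98 bp with H3K14cr at 7882342 to 7883388, and the latter shared 913 bp with a further Kcr region at 7882475 to 7883478. On chromosome 9 an H3K14cr region at 4353156 to 4355423 had a Kcr region at each end, at 4353133 to 4354323 and 4354416 to 4355531, which shared 1167 and 1007 bp with it and ran past it by 23 and 108 bp. The gap between these Kcr regions, from 4354323 to 4354416, thus lay within a continuous H3K14cr region, but it was under 100 bp. So was the gap between the Kcr regions of the chain. Of all bridged gaps, only that between the H3K14cr regions of the chain exceeded 200 bp. Merging regions of a list up to 200 bp apart closes the others. Whether these gaps part distinct regions was not tested.

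The pairs at the limits of the rule show that it cuts through continuous ranges. The widest Kcr regions inside were of 2000 bp, in 2 pairs, one of them on chromosome 3 at 12046389 to 12048389, and the narrowest staggered one outside had 2004 bp, on chromosome 5 at 22599388 to 22601392. The width limit alone left out 392 pairs. At the limit of 100 bp, 102 staggered pairs had a longer flank of 101 to 110 bp, and 100 pairs of the same shape with 91 to 100 bp were counted as matching. Just inside was a pair on chromosome 3 with flanks of 101 and 89 bp (Kcr at 18485461 to 18487286), and just outside one on chromosome 1 with flanks of 58 and 100 bp (Kcr at 2406203 to 2407259). At the limit of nesting, 21 staggered pairs had a flank of 1 bp, among them Kcr at 19073161 to 19074207 on chromosome 1. Outside it, 34 nested and 10 enclosing pairs had a common border, such as that at 8797639 on chromosome 1. Among the matching pairs, 785 of 1615, or 48.6%, also had neither region within the other.

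**Figure D5:**
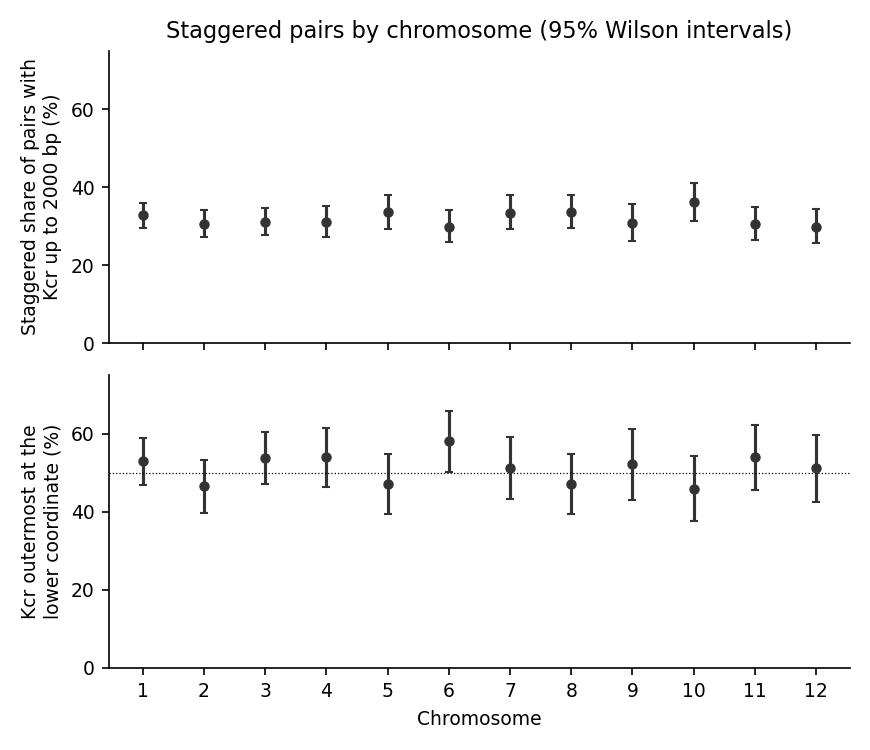
Upper panel: staggered pairs as a share of overlapping pairs with a Kcr region of at most 2000 bp (%) on each chromosome. Lower panel: share of the staggered pairs with Kcr outermost at the lower coordinate (%), with a dotted line at 50%. Points are shares and bars 95% Wilson intervals; the upper shares lie between 29.9 and 36.1%.

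Staggered pairs were found on all 12 chromosomes. There were 5.25 staggered pairs per Mb over the 373.0 Mb spanned by the lists, from 4.59 per Mb on chromosomes 4 and 11 to 6.24 per Mb on chromosome 1. As a share of the pairs with a Kcr region of at most 2000 bp they ranged from 29.9% (25.7 to 34.4%) on chromosome 12 and 29.9% (26.0 to 34.1%) on chromosome 6 to 36.1% (31.4 to 41.1%) on chromosome 10. Every chromosome's interval held the share of all chromosomes, 31.9%. The median overlap lay between 1053.5 bp on chromosome 6 and 1147 bp on chromosome 4. The median H3K14cr flank ranged more widely, from 184 bp on chromosome 10 to 314 bp on chromosome 5, and the median Kcr flank from 95 bp on chromosome 2 to 127 bp on chromosome 3.

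Along the chromosomes a full 1 Mb window held a median of 5 staggered pairs, and 7 of 367 windows held 0. The most, 14, lay between 18000001 and 19000000 on chromosome 10, of 27 pairs with a Kcr region of at most 2000 bp there, beside 44 Kcr and 63 H3K14cr regions. This window also held the longest run of staggered pairs with no other overlapping pair between them, 7 pairs over 129.2 kb from 18807531 to 18936683. The run was mixed in side and size: Kcr was outermost at the lower coordinate in 4 of the 7 pairs, and the overlaps ran from 135 bp to 1490 bp. Windows rich in overlapping pairs were rich in staggered ones, with Spearman's rho of 0.67 over 367 windows, a description, since the staggered pairs are part of that number. The outer 2 Mb of the chromosomes held 17.5% (15.9 to 19.3%) of the staggered pairs, 16.4% (14.7 to 18.3%) of the matching, 13.95% (12.5 to 15.5%) of the nested and 17.6% (14.5 to 21.2%) of the enclosing pairs. Of the pairs with a wider Kcr region 20.3% (17.8 to 23.1%) lay there, and of all overlapping pairs 16.6% (15.7 to 17.5%), close to the share of the staggered pairs. No difference between these shares was tested.

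The surroundings of staggered pairs were described by the next region of each list outside the pair, which the rule did not use. The nearest other Kcr region lay a median of 10058 bp from an outer end of the pair, and the nearest other H3K14cr region 6385 bp. For matching pairs the medians were 10311 and 6275 bp, for nested pairs 10124 and 6331 bp, and for enclosing pairs 10561.5 and 6622 bp. Another Kcr region lay within 5 kb of 440 staggered pairs, or 22.5% (20.7 to 24.4%), against 20.4% (18.5 to 22.4%) of matching, 24.0% (22.2 to 25.9%) of nested and 16.6% (13.6 to 20.1%) of enclosing pairs. For another H3K14cr region the shares were 38.8% (36.7 to 41.0%) of staggered, 40.4% (38.0 to 42.8%) of matching, 37.7% (35.6 to 39.8%) of nested and 35.97% (31.9 to 40.2%) of enclosing pairs. The intervals of staggered, matching and nested pairs overlapped for both marks, and that of enclosing pairs lay below that of staggered ones for Kcr. No test of these differences was run.

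The shares with a further region nearby were close to each other at both ends of a staggered pair. A further H3K14cr region lay within 5 kb of the end where Kcr was outermost in 20.7% of pairs (18.9 to 22.5%) and of the end where H3K14cr was outermost in 22.9% (21.1 to 24.8%). For a further Kcr region the shares were 11.5% (10.2 to 13.0%) and 12.5% (11.1 to 14.04%). The intervals of both ends overlapped for each mark, but both ends belong to the same pairs, which these intervals leave out of account. The difference between the ends was not tested. A region that reached into the pair, as in the bridges, counted as within 5 kb.

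Neighbouring staggered pairs pointed the same way about as often as opposite ways. Of 489 successive staggered pairs at most 50 kb apart, 242 had Kcr outermost on the same side, or 49.5% (45.1 to 53.9%). In 128 the Kcr flanks faced each other and in 119 they faced apart. Within 10 kb the sides were the same in 53 of 113, or 46.9% (38.0 to 56.1%). Successive pairs that share a region are counted here, and by geometry their sides are opposite. A shared Kcr region made the Kcr flanks face each other in 5 cases, and a shared H3K14cr region made them face apart in 4. With only regions in 1 pair kept, 50.2% (45.7 to 54.7%) of successive pairs at most 50 kb apart had the same side. The next overlapping pair after a staggered one was staggered in 27.2% of cases (25.3 to 29.2%), after a matching one in 29.2% (27.1 to 31.5%), after a nested one in 28.2% (26.3 to 30.2%), after an enclosing one in 26.7% (23.1 to 30.8%) and after one with a wider Kcr region in 26.96% (24.1 to 29.99%). The share of staggered pairs among all overlapping pairs, 27.9%, lay within each of these intervals.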

How the data were processed

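The authors deposited 1 list of enriched regions per mark for its 2 replicates, with chromosome, start and end in bp and no score, per the labels and the files. Bowtie is named in the submitters' processing notes. Not given in the sources used here are its version, the build, how regions were detected and at which threshold, the use of the mock precipitation and the way replicates were joined. Region borders, on which every value rests, depend on these steps and on the unknown depth. Positions are printed as deposited, and whether starts count from 0 or 1 is unknown. The gene table at hand belongs to another assembly, so genes and sequences were not used here.

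Regions were paired with Python 3.11.15, pandas 2.3.3 and numpy 2.4.6, and width was end minus start. A pair that qualified for several classes was placed by Kcr width first, then by matching borders, then by shape. Wilson intervals were computed with scipy 1.17.1. Chromosome length was taken as the last region end in either list. Pairing and classes were tested on simulated data and gave the shapes put in. The staggered, nested and enclosing pairs put in had borders over 100 bp apart at both ends. Closer borders were simulated for matching pairs only, so staggered pairs with a flank of at most 100 bp were not tried. The members, limits and named pairs were chosen with earlier results of these data known. Named are the 3 longest overlaps, the 3 largest staggers on each side, the shortest overlaps, the pairs at each limit, the fullest window and the longest run; typical pairs and bridges were added after values were seen. The planned tests of sequence and genes could not be run.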

Additional observations from a re-analysis of the deposited data

How the results depend on the processing

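No paired analysis was possible because the replicates of a mark share 1 list, and for the same reason no replicate could be left out. Of 97 values of 13 results under other settings, 63 stayed within 1.5 times the count or within the 95% interval of the share or median; the results on the longer flank, the close border and the end-to-end pairs were added after the data were seen. With 50 bp for matching borders the median flanks were 85 bp (Kcr) and 151 bp (H3K14cr), the median widths 1248 and 1369 bp, the H3K14cr flank was the longer in 65.3% and the shorter flank at most 100 bp in 73.5%. With 200 bp there were 1260 pairs, with flanks of 114 and 510.5 bp, widths of 1303 and 1697.5 bp, and shares of 77.3% and 58.7%. Without the limit on Kcr width the overlap was 1168 bp, the Kcr flank 114 bp, the widths 1356 and 1598 bp, and the H3K14cr flank was the longer in 67.5%. With both flanks of at least 100 bp, 654 pairs were left, with an overlap of 1042 bp, flanks of 192 and 391 bp, widths of 1332 and 1549.5 bp, 54.1% of successive pairs on the same side and, by construction, 1.07% with a shorter flank of at most 100 bp. With 50% of the Kcr region covered the share with a close border was 69.6%, and by construction 0 end-to-end pairs were left. There were 31 end-to-end pairs after merging regions up to 200 bp apart and 29 among regions in 1 pair only. Within 2 kb another Kcr region lay beside 5.82% and another H3K14cr region beside 13.1% of pairs, and within 10 kb 49.7% and 68.6%. The side of the Kcr flank kept an interval that held 50% under all 7 settings run on it. Since the depth is unknown, a flank listed for 1 mark cannot be told from a flank where the other mark lay below the threshold of its list.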
